A study of Mus musculus with 6 samples.

Results

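The plakins are very large proteins that tie the filament systems of the cell to one another and to adhesion sites at the membrane. The genes described here are the plakin cytolinkers Macf1, Dst, Plec and Evpl, taken from the count table by symbol. They are 4 of 24411 genes, all 4 passed the filter on low counts, and they were chosen by their symbols once their counts in these groups were known (IP against input and icKO against control), so their own values are given as a description. The libraries come from mouse brain and use RiboTag mice: Cre adds an HA tag to Rpl22, a protein of the large ribosomal subunit, and an antibody to the tag then pulls down ribosomes of recombined cells with the RNA on them (immunoprecipitation, IP). Controls carried the NG2CreERTM driver and one Rpl22HA allele (NG2CreERTM;Rpl22HA/+). The knockout group, called icKO, carried in addition floxed alleles of the ankyrinG gene on both chromosomes (NG2CreERTM;Ank3F/F;Rpl22HA/+), and AnkyrinG is a membrane scaffold that binds spectrin. Driver and tagged allele were therefore shared by both genotypes, and the protocol describes tamoxifen without setting the genotypes apart, injected intraperitoneally at 8 weeks of age (100 mg/kg/day on 5 days in a row) with brains taken 1 month later. Each library came from 3 pooled mice, 10% of the cleared whole-brain homogenate was kept as input, and each genotype had 1 input library and 2 IP libraries. The samples are labelled as oligodendrocytes, but the NG2 promoter (the gene Cspg4) is active in oligodendrocyte precursors and also in pericytes, and the inputs are whole brain.

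Macf1 and Dst encode the spectraplakins, which join a calponin homology actin-binding domain through a long rod of spectrin repeats to a microtubule-binding end, and which guide microtubules along actin in migrating cells and growing axons. Macf1 is also known as a partner of the axin complex in Wnt signalling, and loss of Dst in the mouse causes dystonia musculorum, a sensory neuropathy with disordered neurofilaments. Plec encodes plectin, which anchors intermediate filaments such as vimentin and desmin and binds integrin alpha6 beta4 in hemidesmosomes. Evpl encodes envoplakin, a partner of periplakin in the cornified envelope of epidermis.

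The libraries held 18968806 to 23930812 counts, and a count of 3 corresponded to 0.124 to 0.166 CPM (counts scaled to library size, here with trimmed mean of M-values factors, TMM). Ank3 itself was at 382 CPM in control input and at 347 CPM in icKO input, at 1386 and 1357 CPM in control IP and at 1163 and 1166 CPM in icKO IP, so the icKO IP libraries were the lower (log2 difference -0.23 ± 0.02, standard error, edgeR adjusted p = 1.31e-10), a direction that turned to 0.47 when libraries were scaled to mature oligodendrocyte genes. Its count covers the whole gene, and which exons were floxed is not given in the sources used here. All 20 mature oligodendrocyte markers were detected in every library, and their summed level was 4061 and 4000 CPM in the inputs and 17140 to 28190 CPM in the IPs. The 15 precursor markers summed to 891 and 995.5 CPM in the inputs and 10490 to 12210 CPM in the IPs. The 14 pericyte and smooth muscle markers summed to 148.5 and 145.9 CPM and then 1926 to 2811 CPM, and both lists include Cspg4. Genes of the sex chromosomes differed with genotype in inputs and IPs alike: Xist was at 49.96 CPM in control input and 110.3 CPM in icKO input, and the 4 Y-linked genes summed to 87.8 and 31.99 CPM. In control IP Xist was at 711 and 650.5 CPM, and in icKO IP at 2474 and 2468 CPM. The Y-linked sums were 146.5 and 138.9 CPM in control IP and 71.9 and 71.0 CPM in icKO IP. Xist is a non-coding RNA, and whether all RNA in the IPs was on ribosomes was not tested. The IP libraries of a genotype are called biological replicates, but nothing says which mice each pool held, so p-values measure the spread between these libraries. That spread was small (common coefficient of variation 3.01% over the 4 IP libraries).

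In the GENCODE M21 annotation of GRCm38, the assembly named mm10, Macf1 (ENSMUSG00000028649.18) lies at chr4:123349633-123684360 on the minus strand with 16 transcripts, the longest of 23.5 kb in 98 exons. Dst (ENSMUSG00000026131.18) lies at chr1:33908225-34308661 on the plus strand with 20 transcripts, the longest of 23.28 kb, also in 98 exons. Plec (ENSMUSG00000022565.15) lies at chr15:76170974-76232574 on the minus strand with 22 transcripts, the longest of 15.46 kb in 33 exons. Evpl (ENSMUSG00000034282.3) lies at chr11:116220559-116238077 on the minus strand and has 1 transcript, of 6.38 kb in 22 exons. The longest coding sequences correspond to 7355 amino acids for Macf1, 7717 for Dst, 4691 for Plec and 2035 for Evpl, so the first 3 are giant genes with many annotated transcripts and Evpl is a compact one. Counts were deposited per gene, so the isoforms of Macf1, Dst and Plec cannot be told apart. Plec shares 205 exonic bases with Parp10 on the same strand, and Dst shares 1037 and 456 exonic bases with Gm26788 and A930005N03Rik on the opposite strand, so a few reads there are of uncertain origin.

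RefSeq promoter sequences (GRCm38.p6) were matched for 2 of the 4 genes, with 1 entry for Macf1 and 2 for Dst. Macf1 and Dst are shown because Plec and Evpl had no entry. Each line gives the 250 bases before an annotated start, 5′ to 3′ on the strand of the gene, with GC boxes (GGGCGG on either strand) in capitals. The Macf1 sequence is chr4:123684361-123684610 on the minus strand, before the first base of the gene. The Dst sequence is chr1:34011345-34011594 on the plus strand, within the gene and 103.4 kb after its first base, 218 bases from the start of the transcript Dst-202.
Macf1: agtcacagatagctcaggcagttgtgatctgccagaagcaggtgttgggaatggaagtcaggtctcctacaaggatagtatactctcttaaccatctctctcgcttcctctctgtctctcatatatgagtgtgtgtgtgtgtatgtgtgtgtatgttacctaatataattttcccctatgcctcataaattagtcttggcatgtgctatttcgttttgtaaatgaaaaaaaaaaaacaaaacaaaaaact
Dst: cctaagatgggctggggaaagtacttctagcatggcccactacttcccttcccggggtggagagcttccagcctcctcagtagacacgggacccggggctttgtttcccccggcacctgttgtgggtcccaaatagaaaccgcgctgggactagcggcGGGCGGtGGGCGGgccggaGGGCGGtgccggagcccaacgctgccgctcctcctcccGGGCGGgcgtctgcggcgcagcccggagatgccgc
The windows differed in composition: over 300 bases (50 after the start included) G and C made up 40.3% of the Macf1 window and 70.3% of the Dst window. The Dst window held 4 GC boxes and the Macf1 window none, and 35.7% of the 32851 RefSeq promoter windows of that length hold at least 1. Neither window held a CCAAT box on either strand (in 37.4% of the windows), a TATA box written TATAAA (13.6%), an E-box written CACGTG (7.15%) or a CArG box (1.63%). The second Dst entry, chr1:34160010-34160309, had 46% G and C, 1 CCAAT and none of the other motifs. A match is a description of letters and not of a bound site, and which start was used in these cells was not measured.

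Macf1 was at 438 CPM in control input, 2670 and 2603 CPM in control IP, 443 CPM in icKO input, and 5015 and 5010 CPM in icKO IP. The inputs lay side by side, both control IPs lay far above them, and both icKO IPs lay far above the control IPs. Differences between the genotypes in IP were common, with 47.2% of the 15069 genes tested called. Dst followed the same order at 656 CPM, 5157 and 4991 CPM, 684 CPM, and 9142 and 9184 CPM. Plec did so at 446 CPM, 2405 and 2291 CPM, 456 CPM, and 4419 and 4492 CPM. For these 3 genes the gap between the genotypes in IP was many times the gap between replicate IPs, while their inputs differed by less than 5%. Evpl behaved otherwise: it was at 12.85 CPM in control input, 6.48 and 6.52 CPM in control IP, 13.24 CPM in icKO input and 7.19 and 7.73 CPM in icKO IP. Its counts were small, 134 to 158 in the IPs and 282 and 272 in the inputs, and its IPs lay below its inputs in both genotypes.

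**Figure D1:**
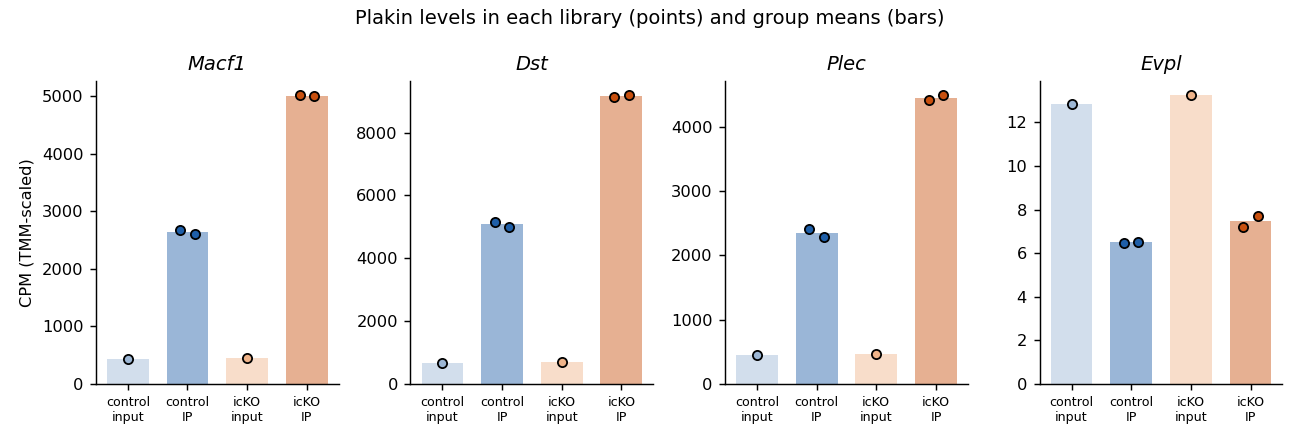
TMM-scaled CPM of Macf1, Dst, Plec and Evpl in each group; points are single libraries and bars are group means (1 library for each input, 2 for each IP). Macf1, Dst and Plec step up from inputs to control IP to icKO IP, with icKO IP means of 5013, 9163 and 4456 CPM, while Evpl is at 12.85 and 13.24 CPM in the inputs and between 6.48 and 7.73 CPM in the IPs.

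The giant plakins were among the most counted genes of the pull-down. By mean CPM over the 4 IP libraries Dst was number 7, Macf1 number 11 and Plec number 12 of 24411 genes, and Evpl was number 10857. Together the 4 genes took 0.161% of all counts in control input (95% exact binomial interval 0.160 to 0.163%) and 0.165% in icKO input (0.163 to 0.166%). Their share was 1.04% and 1.001% in control IP, then 1.77% and 1.79% in icKO IP, nearly all of it from Macf1, Dst and Plec. These intervals cover counting error only, and a count share also grows with transcript length.

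Per kilobase of longest transcript the order in control IP was Dst with 218 CPM per kb, Plec with 151.9, Macf1 with 112.2 and Evpl with 1.02. In icKO IP the same order held at 393.6, 288.3, 213.3 and 1.17 CPM per kb. In the inputs Dst and Plec were level per transcript kilobase (28.2 and 28.9 in control, 29.4 and 29.5 in icKO) and Macf1 was lower (18.7 and 18.9). Over all exonic bases of each gene in place of the longest transcript, Plec came before Dst in control IP (129.6 ± 4.44 and 123.3 ± 2.86 CPM per exonic kb, SD, n = 2). Macf1 (83.97 ± 1.51) stayed behind both and Evpl (1.02) last. Plec was also above Dst per exonic kb in the inputs (24.65 and 15.94 in control, 25.17 and 16.63 in icKO), where Macf1 was at 13.96 and 14.11. The order of Dst and Plec thus depends on the length used.

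The proportions among the giant plakins shifted between input and IP. Dst had 1.497 and 1.545 counts for each Macf1 count in the inputs, 1.93 and 1.92 in control IP and 1.82 and 1.83 in icKO IP. Plec had 1.02 and 1.03 counts for each Macf1 count in the inputs and 0.880 to 0.901 in the 4 IPs. Dst was thus favoured over Macf1 in IP, more so in control than in icKO libraries, and the ratio of Plec to Macf1 overlapped between the genotypes in IP.

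Which genes the pull-down enriched was asked by setting IP against input. In control libraries Macf1 was 6.02-fold higher in IP than in input (log2 2.59 ± 0.03, standard error), Dst 7.73-fold (2.95 ± 0.03) and Plec 5.26-fold (2.39 ± 0.03). In icKO libraries Macf1 was 11.3-fold higher (3.50 ± 0.03), Dst 13.4-fold (3.74 ± 0.03) and Plec 9.78-fold (3.29 ± 0.03). Over both genotypes the log2 differences were 3.02 ± 0.19, 3.33 ± 0.18 and 2.82 ± 0.19, and only 1.03% of the 15451 genes tested had a higher value than Dst, 1.48% than Macf1 and 1.93% than Plec. Evpl was at -0.91 ± 0.12, and -0.98 ± 0.16 and -0.83 ± 0.17 within control and icKO, lower in IP under TMM scaling but at 0.87 when libraries were scaled to genes of neurons, astrocytes, microglia and endothelium. Macf1, Dst and Plec were called higher and Evpl lower in all 3 fits. Of all genes tested 34.8% were called higher and 35.1% lower over both genotypes (70% in all). In control libraries alone 35.1% were called higher and 35% lower (70.1% in all), and in icKO libraries alone 35.4% higher and 35.7% lower (71.2% in all).

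These differences are relative to the middle of all genes, since an IP and an input hold different RNA, and fewer cells of a type and less RNA per cell cannot be told apart. Scaled to the mature oligodendrocyte genes, which shifts the median of all genes by -2.45, Macf1 was at 0.52, Dst at 0.84 and Plec at 0.32, and in control libraries alone Macf1 was at -0.20 and Plec at -0.40. Each input is 1 library, so within a genotype its spread is taken from the IP pairs. The fit over both genotypes has no term for their difference in IP against input, and that difference enters its spread. Its common coefficient of variation was 8.61%, against 3.01% in the fits within a genotype, and its standard errors are wider for that reason.

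Transcript length moved with the same comparison. The 69 genes with a longest transcript of 15 kb or more had a median log2 difference of 0.80 in IP against input (0.74 without plakins), and those of 1 to 2 kb had -0.32. With an offset for the trend with length in each library, Macf1 was at 2.16, Dst at 2.47, Plec at 2.16 and Evpl at -1.14. The part of length in the differences of single genes was not tested beyond that offset.

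The main comparison of the design is between the genotypes in the RNA pulled down with the tagged ribosomes. In icKO IP against control IP, Macf1 was 1.90-fold higher (log2 0.93 ± 0.02, standard error), Plec 1.90-fold (0.93 ± 0.02) and Dst 1.81-fold (0.85 ± 0.02). Evpl was 1.15-fold higher (0.20 ± 0.16), with a 95% interval from -0.12 to 0.52, whose upper end lay below the values of the giant plakins. The directions of all 4 were the same under each scaling tried. Of the 15069 genes tested 47.2% were called, 22.1% higher and 25.2% lower, and of the 4 plakins Macf1, Dst and Plec were called higher and Evpl was not called. Among all genes tested 3.18% had a higher value than Macf1, 3.19% than Plec, 3.84% than Dst and 30.4% than Evpl.

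**Figure D2:**
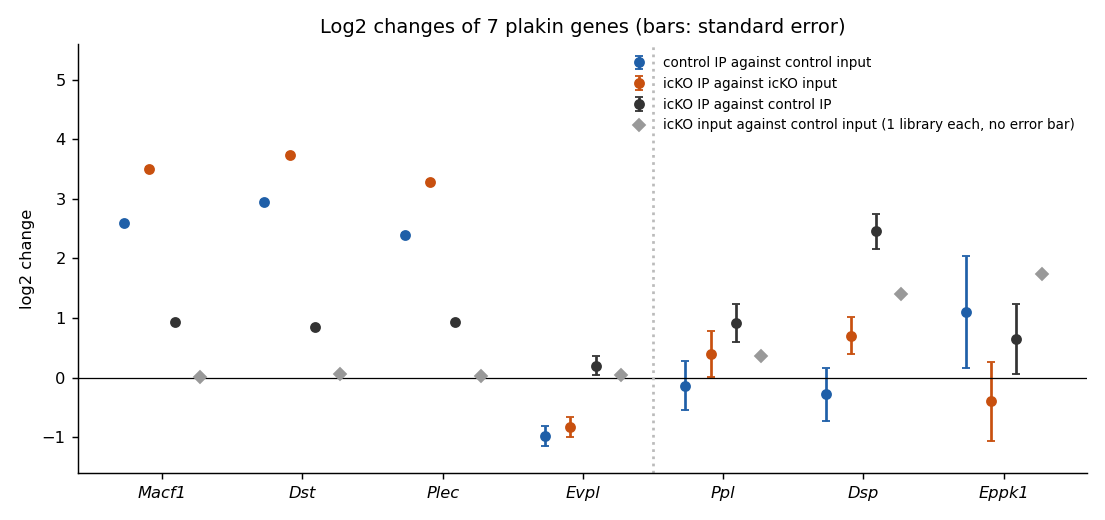
Log2 changes of 7 plakin genes in 4 comparisons under TMM scaling, with standard errors as bars (no bar for the inputs, 1 library each; bars of Macf1, Dst and Plec are smaller than the points). The genotype change in IP is 0.93, 0.85 and 0.93 for Macf1, Dst and Plec beside input ratios of 0.02, 0.06 and 0.03, and for Dsp the input ratio is 1.40. Evpl lies below 0 in IP against input, and at 0.87 there when scaled to genes of other cell types.

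The whole-brain inputs did not show this difference. The log2 ratio of icKO to control input was 0.02 for Macf1 (95% counting interval -0.03 to 0.06), 0.06 for Dst (0.03 to 0.09), 0.03 for Plec (-0.01 to 0.07) and 0.04 for Evpl (-0.20 to 0.29). The change with genotype in IP minus that in input, which uses the same IP libraries, was 0.91 ± 0.04 for Macf1, 0.79 ± 0.03 for Dst, 0.89 ± 0.04 for Plec and 0.15 ± 0.24 for Evpl. In that comparison 24.5% of genes tested were called, 10.3% with a higher value in IP, and Macf1, Dst and Plec were among the latter while Evpl was not called. With 1 input per genotype, the spread among inputs is not known.

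Other genes moved with the same contrast, in which 22.1% of all genes tested were called higher and 25.2% lower. The mature oligodendrocyte list was lower in icKO IP in 20 of 20 members (median log2 -0.75, against 0.0033 over all genes tested), and its summed level was 28020 and 28190 CPM in control IP and 17140 and 17280 CPM in icKO IP. The precursor list had 12 of 15 lower and 1 higher (median -0.26, summed 12090 to 12210 against 10490 to 10580 CPM). The 2 precursor genes not called were Pdgfra (-0.03 ± 0.02) and Bcan (-0.04 ± 0.03). Pdgfra was at 2241 and 2236 CPM in control IP and at 2195 and 2185 CPM in icKO IP. The pericyte and smooth muscle list had 13 of 14 lower and 1 higher (median -0.92, summed 2783 to 2811 against 1926 to 1978 CPM). The 1 higher gene was Cspg4 in both, which is shared by these lists. Cspg4 was at 893 and 906 CPM in control IP and at 935 and 971 CPM in icKO IP. It was thus a large part of the pericyte and smooth muscle sums. Neuron genes had 8 of 15 higher and 2 lower (median 0.10, summed 3298 to 3343 against 3662 to 3742 CPM), and astrocyte genes 6 of 12 higher and 3 lower (median 0.17, summed 2157 to 2163 against 2116 to 2151 CPM). None of the markers in these 5 lists was at 0 in any library. Scaled to the mature oligodendrocyte list, which shifts the median of all genes by 0.71, Macf1 was at 1.63, Dst at 1.56, Plec at 1.63 and Evpl at 0.90. Scaled to neuron, astrocyte, microglia and endothelial genes they were at 0.84, 0.77, 0.84 and 0.11. The part of these cell type genes, or of the sex chromosome genes above, in the plakin values was not tested.

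Transcript length also moved with genotype. In icKO IP against control IP the median log2 change was -0.18 for the 2213 genes with a longest transcript of 1 to 2 kb, 0.05 for the 3480 genes of 4 to 6 kb, 0.24 for the 316 genes of 10 to 15 kb and 0.45 for the 68 genes of 15 kb or more (0.42 without plakins). In that last class 49 genes were called higher (72.1%) and 4 lower (Serbp1, Ube2d3, Lpp and Sspo). Macf1, Plec and Dst had the 7th, 8th and 10th highest changes of those 68 genes, below Xist, the non-coding RNA of the inactive X chromosome, at 1.86 and beside the ryanodine receptor gene Ryr1 at 0.96. Evpl, of 6.38 kb, was close to the median of the 1260 genes of 6 to 8 kb, 0.10. With an offset for the trend with length in each library, the genotype changes were 0.48 for Macf1, 0.41 for Dst, 0.60 for Plec and 0.12 for Evpl, and Macf1, Dst and Plec stayed above the median of all genes, then 0.025. With the same offset, the change in IP minus that in input was 0.49, 0.38, 0.60 and 0.10.

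**Figure D3:**
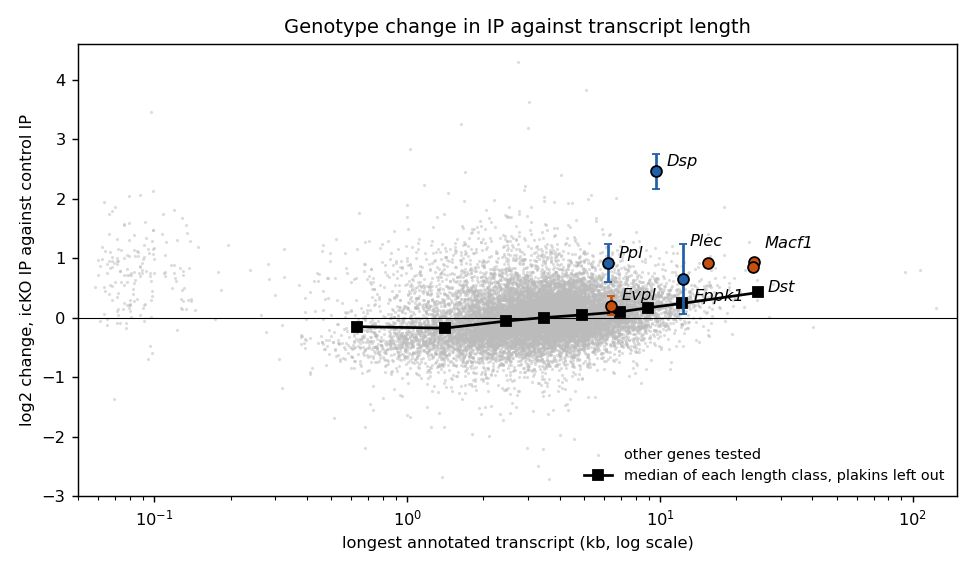
Log2 change in icKO IP against control IP by longest annotated transcript (log axis), for 14492 genes tested that have a length. Squares are medians of length classes without the plakins, rising to 0.42 at 15 kb and over; orange points are Macf1 (0.93), Dst (0.85), Plec (0.93) and Evpl (0.20), blue points are Ppl, Dsp and Eppk1, and bars are standard errors.

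The other plakins were not among the genes chosen and were tested, although all were scarce. Their list, too, was written with earlier results of these data known. Dsp, which encodes desmoplakin of the desmosome, had 19 and 20 counts in control IP against 82 and 93 in icKO IP, or 0.905 and 0.825 CPM against 4.397 and 5.13 CPM. Dsp rose 5.49-fold in icKO IP (log2 2.46 ± 0.29, edgeR adjusted p = 1.92e-08, n = 2 against 2), higher in both icKO libraries than in either control. Its input showed a difference as well, 23 counts in control and 60 in icKO (log2 1.40, 95% counting interval 0.76 to 2.24), and the change in IP minus that in input did not pass (0.98 ± 0.55, edgeR adjusted p = 0.207). Ppl, which encodes periplakin, the partner of envoplakin, had 26 and 34 counts in control IP and 44 and 48 in icKO IP. Ppl rose by 0.92 ± 0.32 on the log2 scale (edgeR adjusted p = 0.0175), a call that was lost with DESeq2 (0.0867), when control IP replicate 1 was left out (0.0819) and when icKO IP replicate 2 was (0.113). Eppk1, which encodes epiplakin, had 8 and 10 counts in control IP, 10 and 13 in icKO IP and 4 and 17 in the inputs. Its change of 0.65 ± 0.59 did not pass (edgeR adjusted p = 0.389, 95% interval -0.56 to 1.86), so a change of the size seen for Macf1 was not detectable at this depth. Eppk1 shares 679 exonic bases with BC024139 on the same strand, which leaves its few reads uncertain. In IP against input over both genotypes none of Ppl, Dsp and Eppk1 passed the test (log2 0.15, 0.35 and 0.13, edgeR unadjusted p = 0.607, 0.255 and 0.810, and none passed with DESeq2), and their signs turned to -2.31, -2.11 and -2.19 when scaled to mature oligodendrocyte genes. In control libraries alone none was called. In icKO libraries alone 1 of the 3, Dsp, was called higher (0.70 ± 0.31, edgeR adjusted p = 0.0441), beside 35.4% of all genes tested.

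Genes that share parts with the spectraplakins, or belong to the dystrophin complex, were examined as lists. Of 10 other genes with spectrin repeats or of the dystrophin complex, not all of them giants, 9 rose in icKO IP and none fell. Their median was 0.52 (0.31 with the length offset) against 0.0033 over all genes tested, of which 22.1% rose and 25.2% fell. All 10 values were above 0, so none fell by edgeR or DESeq2 at any threshold. Utrn, which encodes the dystrophin relative utrophin, was at 299.9 and 292.9 CPM in control IP and 582.1 and 543.3 CPM in icKO IP and rose by 0.93 ± 0.03. Kalrn, which encodes the guanine nucleotide exchange factor kalirin, was at 1140 and 1099 CPM and then 1952 and 1961 CPM, a rise of 0.81 ± 0.02. In the inputs both were level, at 116.5 and 126.9 CPM for Utrn and 966.5 and 897.1 CPM for Kalrn. Of the relatives that share the microtubule-binding GAS2 domain with Macf1 and Dst, 1 of 3 tested rose and none fell (median 0.07): Gas2l3, which acts in cytokinesis, rose by 1.14 ± 0.18 from 3.57 and 3.59 CPM to 8.74 and 7.06 CPM (edgeR adjusted p = 4.63e-06).

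Genes of the filaments and junctions that plakins bind moved in both directions, as did all genes tested, of which 22.1% rose and 25.2% fell. Of 14 intermediate filament and lamin genes tested, 6 rose and 4 fell (median 0.10). Nefh, the heavy neurofilament chain, rose by 0.89 ± 0.05 from 79.43 and 75.78 CPM to 145.9 and 141.1 CPM. Des, the muscle and pericyte filament desmin, fell by 0.71 ± 0.14 (12.25 and 11.97 CPM to 7.19 and 7.62 CPM), a call lost when scaled to mature oligodendrocyte genes (-0.0023, edgeR adjusted p = 0.987). Nes, the progenitor filament nestin, fell by 0.56 ± 0.06 but was at 0.14 when scaled to mature oligodendrocyte genes. Des is also in the pericyte and smooth muscle list, where 13 of 14 fell. Of 15 hemidesmosome and basement membrane genes 5 rose and 6 fell (median 0.04). The laminin chain gene Lama3 rose by 1.10 ± 0.11 from 15.34 and 11.52 CPM to 27.72 and 29.42 CPM, and Col17a1, the hemidesmosomal collagen, rose by 1.63 ± 0.41 at levels of only 0.62 to 2.26 CPM. The tetraspanin gene Cd151 fell by 0.59 ± 0.10, but was at 0.12 when scaled to mature oligodendrocyte genes.

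Of 16 desmosome and cornified envelope genes 8 could be tested in the IPs, and Dsg1a, Dsg3 and Ivl, 3 epidermal genes, were at 0 in every IP library, which with a floor of 3 counts allows up to 0.124 to 0.166 CPM in each. Of those tested 3 rose and 3 fell (median 0.29), beside 22.1% and 25.2% of all genes tested. The rises did not hold throughout: with DESeq2 0 rose and 3 fell (median 0.30). The list median was -0.27 over the 4 genes with a mean of at least 5 CPM, and -0.06 without icKO IP replicate 2. With each of the other IP libraries left out it was 0.44 to 0.48. The desmosomal cadherin gene Dsc2 rose by 0.94 ± 0.35 (edgeR adjusted p = 0.0274), a call lost with DESeq2 (0.112) and without control IP replicate 1 (0.104), control IP replicate 2 (0.0729) or icKO IP replicate 2 (0.217). Perp, a membrane protein of desmosomes, fell by 0.94 ± 0.15, a call lost when scaled to mature oligodendrocyte genes (-0.23, edgeR adjusted p = 0.158). Jup, which encodes plakoglobin, fell by 0.40 ± 0.06 but was at 0.30 when scaled to mature oligodendrocyte genes.

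The microtubule partners of the spectraplakins showed no shift in common under TMM scaling, where 22.1% of all genes tested rose and 25.2% fell. Of 26 plus-end and lattice protein genes 10 rose and 9 fell, with a median of -0.03 (-0.13 with the length offset, where 6 rose and 14 fell). Clip1, the plus-end tracking protein CLIP-170, rose by 1.18 ± 0.03 from 352.1 and 327.6 CPM to 763.6 and 778.3 CPM, and its relative Clip2 rose by 0.49 ± 0.03. Slain1, a microtubule growth factor, fell by 0.55 ± 0.03 but was at 0.16 when scaled to mature oligodendrocyte genes. Of 13 Wnt pathway genes around the Macf1-axin link, 2 rose and 6 fell (median -0.04). The co-receptor gene Lrp5 fell by 0.47 ± 0.06, but was at 0.23 when scaled to mature oligodendrocyte genes. The scaffold genes Apc2 and Apc rose by 0.38 ± 0.03 and 0.17 ± 0.02, and Apc was at -0.09 with the length offset. All genes named from these lists as risen or fallen passed the edgeR test at the adjusted threshold of 0.05 in 2 against 2 libraries, and each list was written with results of these data known.

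**Figure D4:**
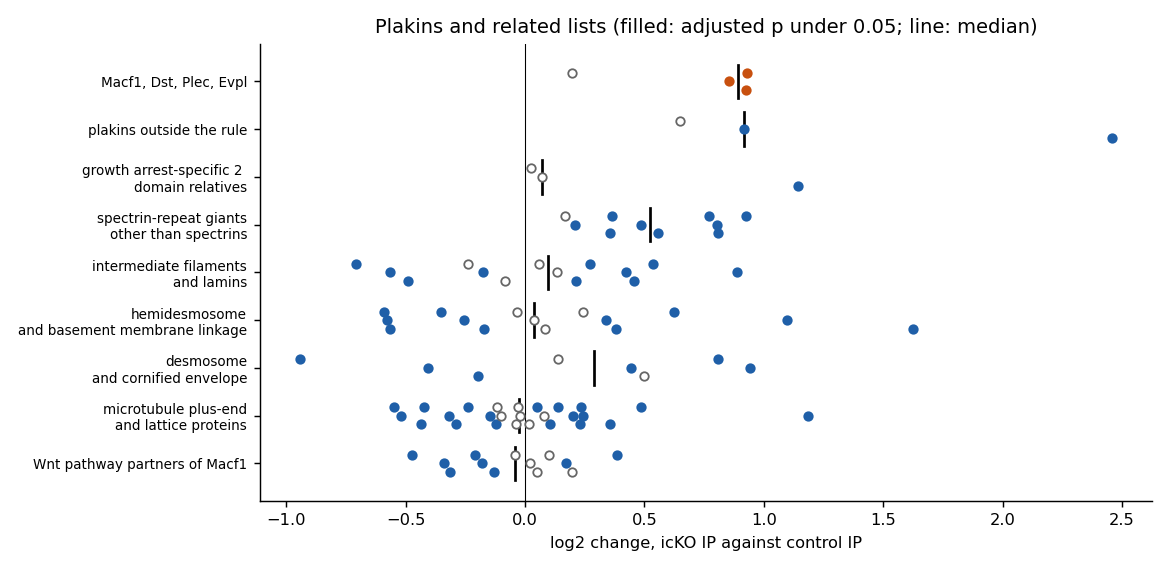
Log2 change in icKO IP against control IP under TMM scaling for the plakins and for 8 lists of related genes, 1 point per gene tested; filled points have an edgeR adjusted p under 0.05, open points do not, and vertical lines are list medians. The list labelled spectrin-repeat giants, which also holds shorter genes and genes of the dystrophin complex, lies from 0.17 to 0.93. The filament, junction, microtubule and Wnt lists spread on both sides of 0. Scaled to mature oligodendrocyte genes, Nes, Cd151, Jup, Slain1 and Lrp5 lie above 0.

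Profiles over the 6 libraries were compared as the root mean square distance of log2 levels, each centred on its own mean, among 11646 genes with a mean of at least 5 CPM. Macf1 and Plec lay 0.10 apart, Macf1 and Dst 0.15, and Dst and Plec 0.24, whereas Evpl lay 1.77 to 2.002 from each of them. The genes closest to Macf1 were Plec (0.096), 4632427E13Rik (0.109) and Limch1 (0.117). Closest to Dst were the chromatin remodeller gene Atrx (0.086), Limch1 (0.112), which encodes an actomyosin regulator, and Mprip (0.114), which encodes a myosin phosphatase partner. Closest to Plec were the non-muscle myosin heavy chain gene Myh9 (0.090), Macf1 and the giant muscle gene Ttn (0.105). Myh9 was at 164.1 and 174.4 CPM in the inputs, 786.6 and 792.4 CPM in control IP and 1457 and 1464 CPM in icKO IP, the same steps as Plec. Closest to Evpl were the latrophilin gene Adgrl1 (0.026), the clock gene Cry2 (0.026) and Chic1 (0.028), so Evpl lay among genes whose IP levels were about as far below input as its own. Adgrl1 was at 779.4 and 838.4 CPM in the inputs and at 411.1 to 476.2 CPM in the IPs.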

How the data were processed

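RNA was measured in 6 libraries of mouse brain: 1 control input, 2 control IP, 1 icKO input and 2 icKO IP, grouped by sample title (1 icKO IP title has cKO for icKO). The authors deposited raw read counts per gene, after Trimmomatic 0.39 and STAR 2.7.10b on mm10 per the submitters' processing notes; counter, annotation, strand setting and duplicate handling are not given in the sources read. Libraries were made with a stranded total RNA kit for low input, per the labels' protocols. Of 24421 rows 10 without input values were left out. Counts were scaled with TMM, filtered with filterByExpr and tested with edgeR 4.0.16 in R 4.3.3 (two-sided quasi-likelihood test, Benjamini-Hochberg adjusted p under 0.05 over all genes tested). IPs were compared in the 4 IP libraries, IP with input in all 6 with genotype as a term, and each genotype and their difference in a fit of 4 groups. Input ratios used a prior count of 2 and no test. The test was checked on simulated counts. Transcript lengths come from GENCODE M21, for 96.2% of genes tested. Alternatives were library totals, RLE factors, DESeq2 1.42.0, other filters, scaling to cell type lists, a length offset, a replicate block and libraries left out.

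The 4 genes and all lists were chosen with earlier results of these data known. The rule for named genes allowed, from each related and cell type list, up to 4 called genes with the largest change in icKO IP against control IP and up to 2 opposite to the median. By that rule the text names only the first 2 and the first 1 of these from each related list and none from the cell type lists. Beside them it names the plakins, Ank3 and 3 profile neighbours per gene (log2 of CPM plus 0.5). Xist, Ryr1, Dsg1a, Dsg3, Ivl, the Y-linked genes and the 4 long genes that were lower were named after their values were seen. So were Cspg4, Pdgfra and Bcan of the cell type lists.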

Additional observations from a re-analysis of the deposited data

Results flagged for a closer look

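For 3 of the 4 genes the change with genotype differed between IP and input. The change in IP minus that in input was 0.9115 for Macf1, 0.7916 for Dst and 0.8942 for Plec on the log2 scale, all higher in IP, whereas Evpl was at 0.15 ± 0.24. The genes were chosen with these values known, so the differences are a description. Each input is a single library, and 24.5% of all 15451 genes tested were called in the same comparison.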

How the results depend on the processing

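The replicate number as a block gave 7277 called genes in icKO IP against control IP, against 7119 without it, and 4049 against 3782 for the difference between genotypes in IP against input. It changed no call of a gene named here. The deviations of same-numbered libraries had a correlation of -0.014 over 11646 genes, and no label says that a number marks a shared pool, so the numbers were not used as pairs.

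Scaling mattered most. Scaled to mature oligodendrocyte genes, 12912 genes were called in icKO IP against control IP (99.2% of them higher, against 46.7% in the main result, 32.6% with library totals and 32.3% scaled to other cell types). There Evpl passed at 0.90, and Ank3 (0.47), Nes (0.14), Cd151 (0.12), Jup (0.30), Slain1 (0.16) and Lrp5 (0.23) turned positive, while Des (-0.0023) and Perp (-0.23) no longer passed. In IP against input the same scaling left Macf1 at 0.52 and Plec at 0.32, past no threshold, turned Ppl, Dsp and Eppk1 to -2.31, -2.11 and -2.19, and in control libraries turned Macf1 to -0.20 and Plec to -0.40. Called genes were then 1.22% higher, and 97.9% higher when scaled to other cell types, against 49.8%. Scaled to other cell types, Evpl turned to 0.87 over both genotypes, 0.82 in control and 0.93 in icKO. The difference between genotypes had 10399 called genes scaled to oligodendrocyte genes and 1837 with DESeq2, against 3782, and 28.0% of calls were higher with library totals against 42.1%. The length offset turned Apc to -0.092 in icKO IP against control IP, and Ppl, Dsp and Eppk1 to -0.080, -0.10 and -0.45 in IP against input. Without control input Eppk1 was at -0.40 there, and without icKO input Ppl and Dsp were at -0.13 and -0.27. The cause of these shifts was not tested.

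With each IP library left out in turn, called genes ran from 5905 to 6242 in icKO IP against control IP, 10106 to 10155 in IP against input and 3531 to 3903 for the difference, and Macf1, Dst and Plec from 0.83 to 0.96 in the first. The lone library is then assumed to vary like the others. Every list symbol was found as written, so the lookup of older symbols changed nothing. With a minimum mean of 20 CPM, Syne2 replaced Ttn beside Plec. Depth limits Eppk1, Ppl and Dsp, which had 4 to 93 counts a library.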
